A study of Rattus norvegicus with 3 samples.

Results

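The Id genes (inhibitor of DNA binding) encode small nuclear proteins with a helix-loop-helix domain and no basic DNA-binding region. They pair with E proteins such as Tcf3, Tcf4 and Tcf12 and keep them from binding DNA with proneural partners such as Neurog2. In many cells Id1, Id2 and Id3 are direct targets of bone morphogenetic protein (BMP) signalling through Smad1 and Smad5. In the embryonic cortex the family is known for holding neural progenitors back from differentiation. The members described here are Id1, Id2, Id3 and Id4, 4 of the 29772 rat genes listed in the count matrices, found by symbol under the identifiers gene-Id1, gene-Id2, gene-Id3 and gene-Id4. They were selected on measured values of these same cells, over cell classes and libraries, so every value below is a description and carries no test.

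Primary cells of the cerebral cortex of wildtype rat embryos (Rattus norvegicus) were profiled with the 10x Genomics Single Cell 3′ assay, version 3.1, which counts unique molecular identifiers (UMIs) at the 3′ ends of transcripts. The 3 groups are embryonic days 14, 16 and 18, with 1 library for each, named here by its label (E14, E16 or E18), and the same genotype, tissue and papain dissociation in all. Age, litter and preparation can therefore not be told apart, and the number of embryos behind a library is not given in the labels. The labels' protocol text also describes cultured, tagged and sorted human cells, which does not match primary rat cells. The title of the series concerns the timing of neurogenesis and the dosing of excitatory neuron subtypes.

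The cells that passed numbered 4286 under label E14, 4977 under E16 and 5431 under E18, with median depths of 11199.5, 12264 and 10477 UMIs, and each pair of libraries shared 8 or 9 cell barcodes. The deposited totals ran from 62740631 to 80974234 UMIs. Genes that mark early and late stages did not follow the labelled ages. Radial glia, the stem cells that line the cortical ventricle, had the early gene Hmga2 at 12.2 CPM (counts per 1000000 UMIs) in the library labelled E14, at 222 CPM in that labelled E16 and at 21.2 CPM in that labelled E18. Aldoc, a gene of late radial glia and astrocytes, was at 728, 17.0 and 240.3 CPM. Each difference below therefore compares labelled libraries, whose true ages are not established by these values. A level is the UMIs of a gene summed over the cells of a class, divided by all UMIs of that class, and its 95% interval covers counting error only.

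Cells were grouped into 26 clusters, of which 24 took the name of a cell class from marker genes and 2 stayed unnamed. Radial glia numbered 383, 2923 and 1805 cells in label order. Different clusters held most of them: clusters 2, 12 and 18 in the library labelled E14, clusters 1, 4, 14 and 9 in that labelled E16, and clusters 2, 12, 9 and 18 in that labelled E18. The library labelled E16 held 4 cells named as excitatory neurons, and an unnamed cluster of 592 of its cells led by Calb1, Calb2 and Lhx9, with Neurod2 at 378 CPM and Tbr1 at 531 CPM, stands in for neurons there. The other unnamed cluster, led by Fgf17, Fgf8 and Zic4, held 418 cells labelled E16 and 52 labelled E18. Id3 was itself among the 10 leading genes of that cluster. The Id genes and the BMP genes were left out when the clusters were built.

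Id1 and Id3 took high levels in much the same cell classes, and Id2 and Id4 each took others. Id1 and Id3 were high in endothelial cells, choroid plexus, meningeal fibroblasts and the Fgf17/Fgf8 cluster, and low in excitatory neurons. Radial glia labelled E14 had Id1 at a level like those of the Fgf17/Fgf8 cluster. Id2 was highest in excitatory neurons labelled E14. Id4 was highest in radial glia of all 3 libraries. The plot of levels by class shows these patterns.

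**Figure D1:**
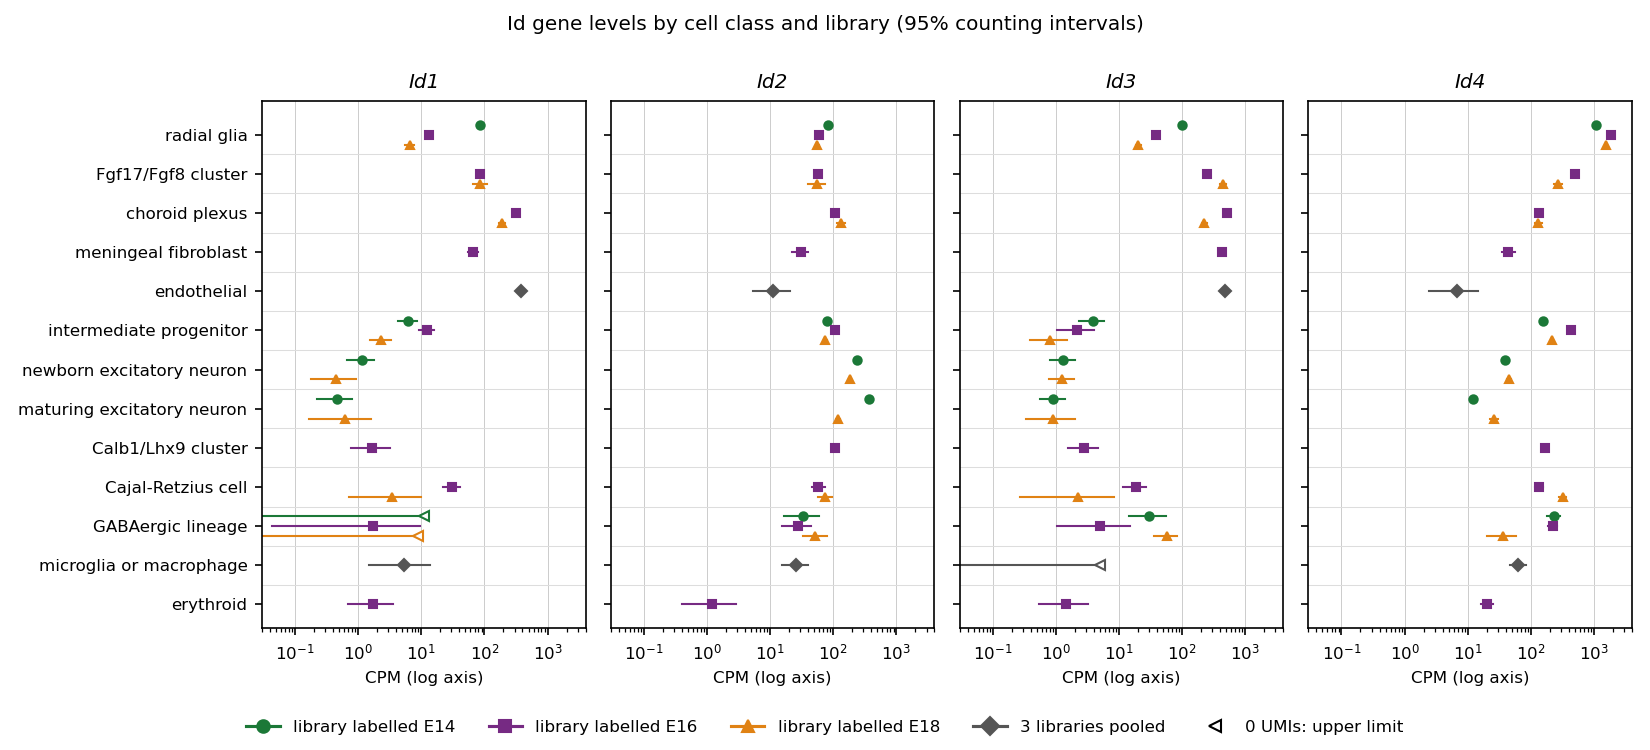
Levels of Id1, Id2, Id3 and Id4 (horizontal log axis, CPM) in each cell class (rows), with 1 marker per library and a line for the 95% counting interval. Open triangles give the upper limit where no UMI was counted, and endothelial cells and microglia or macrophages are pooled over the 3 libraries. Id1 and Id3 stand high in endothelial cells and choroid plexus, Id2 in excitatory neurons labelled E14 and Id4 in radial glia.

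The sequences upstream of Id1, Id3 and Id2 are shown because the levels of the first pair ran together over the cell classes and those of Id2 did not. All 4 members matched the RefSeq promoter table, whose build is GRCr8. The counts were made on mRatBN7.2, per the submitters' processing notes. The 250 bases before each annotated start are printed 5′ to 3′ on the strand of the gene. Capitals mark matches, on either strand, to the E-box CANNTG, the TATA box TATAAA, the CCAAT box CCAAT and GGCGCC, a GC-rich sequence of the kind bound by BMP Smads. A palindrome was counted once, and no 2 marked matches overlap. The Id1 window is chr3:161671314-161671563 on the plus strand, the Id3 window chr5:153656041-153656290 on the plus strand, and the Id2 window chr6:47470996-47471245 on the minus strand.
Id1: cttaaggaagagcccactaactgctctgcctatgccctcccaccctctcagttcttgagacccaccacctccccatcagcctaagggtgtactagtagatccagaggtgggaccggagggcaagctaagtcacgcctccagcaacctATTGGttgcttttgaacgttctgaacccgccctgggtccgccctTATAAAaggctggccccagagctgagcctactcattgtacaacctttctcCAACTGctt
Id3: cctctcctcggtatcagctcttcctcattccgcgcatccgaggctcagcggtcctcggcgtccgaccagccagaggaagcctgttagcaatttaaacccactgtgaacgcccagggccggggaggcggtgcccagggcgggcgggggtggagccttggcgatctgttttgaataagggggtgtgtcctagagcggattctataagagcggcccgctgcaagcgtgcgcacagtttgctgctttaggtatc
Id2: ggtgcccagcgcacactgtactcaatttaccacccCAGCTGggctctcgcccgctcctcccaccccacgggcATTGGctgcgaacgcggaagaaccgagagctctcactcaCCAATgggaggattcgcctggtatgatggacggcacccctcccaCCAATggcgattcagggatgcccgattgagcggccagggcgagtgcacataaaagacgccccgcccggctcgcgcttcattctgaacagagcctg
The Id1 window holds a TATAAA 59 bases before the start, a CCAAT box on the other strand at 103 bases and a CAACTG E-box at 9 bases. The Id2 window holds 3 CCAAT boxes, at 178, 139 and 95 bases before the start, and a CAGCTG E-box at 215 bases. No match to any of the 4 motifs lies in the Id3 window, and GGCGCC lies in none of the windows printed. Bases outside these windows were not searched, so its absence here does not bear on sites elsewhere. Of 33469 promoter windows of the same length, 12.9% held TATAAA, 34.0% CCAAT, 65.5% CANNTG and 8.69% GGCGCC. The windows of Id1, Id2 and Id3 have 54.8%, 62.8% and 61.2% G and C bases, against a mean of 52.2% over all windows. The annotated Id4 start falls on an ATG, so no Id4 sequence is printed.

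In radial glia Id1 and Id3 were highest in the library labelled E14 and lowest in that labelled E18, while Id4 was lowest in that labelled E14. Id1 stood at 84.3 CPM (76.9–92.3) in the library labelled E14, at 13.2 CPM (12.2–14.3) in that labelled E16 and at 6.50 CPM (5.55–7.57) in that labelled E18. Id3 stood at 99.4 CPM (91.3–108), 39.1 CPM (37.3–41.0) and 20.3 CPM (18.5–22.1) in the same order. The intervals of these 2 genes do not overlap between any of the libraries. Id2 had 83.8 CPM (76.4–91.7), 58.6 CPM (56.4–60.9) and 56.0 CPM (53.2–59.0), and its intervals under labels E16 and E18 overlap. Id4 had 1077 CPM (1050–1104), 1889 CPM (1876–1902) and 1569 CPM (1554–1585).

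Between the libraries labelled E14 and E16, radial glia had 6.37 times as much Id1 (5.64–7.197) and 2.54 times as much Id3 (2.31–2.79). Id2 was 1.43-fold (1.29–1.58) higher under label E14, and Id4 was 1.75-fold (1.71–1.80) higher under label E16, a difference that passed 2-fold, at a log2 ratio of -1.04, with no doublets removed. So 2 of the 4 members lay at least 2-fold apart, where 11.1% of the 10298 genes tested did. A gene was tested with at least 5 CPM in 1 of the groups, and the 2-fold rule was applied after adding 1 CPM to each level. On that scale Id1 lay above 98.6% of all genes tested and Id3 above 94.7%, with log2 ratios of 2.58 and 1.32, against a median of 0.13 over all genes. The log2 ratio of Id3 ranged from 1.02 with no doublets removed to 2.11 with separate clustering of each library.

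For labels E14 and E18 the same 2 genes were past 2-fold, where 5.15% of 10195 genes were. Id1 was 13.0-fold (10.8–15.6) and Id3 4.91-fold (4.35–5.54) higher under label E14, the log2 ratio of Id3 moving from 2.24 to 2.90 with separate clustering, Id2 was 1.495-fold (1.34–1.66) higher, and Id4 was 1.46-fold (1.42–1.498) higher under label E18. For labels E18 and E16 none of the 4 was past 2-fold with 1 CPM added, where 3.14% of 9944 genes were. Id1 and Id3 were then 2.04-fold (1.71–2.43) and 1.93-fold (1.75–2.14) higher under label E16, close to the 2-fold limit, and both passed it with no doublets removed or without clusters 1 and 4. The Id2 ratio between these libraries, 0.957 (0.896–1.02), has an interval that holds 1, and its log2 value changed sign, to 0.09, with no doublets removed. The 3 comparisons share libraries and are not independent of each other.

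**Figure D2:**
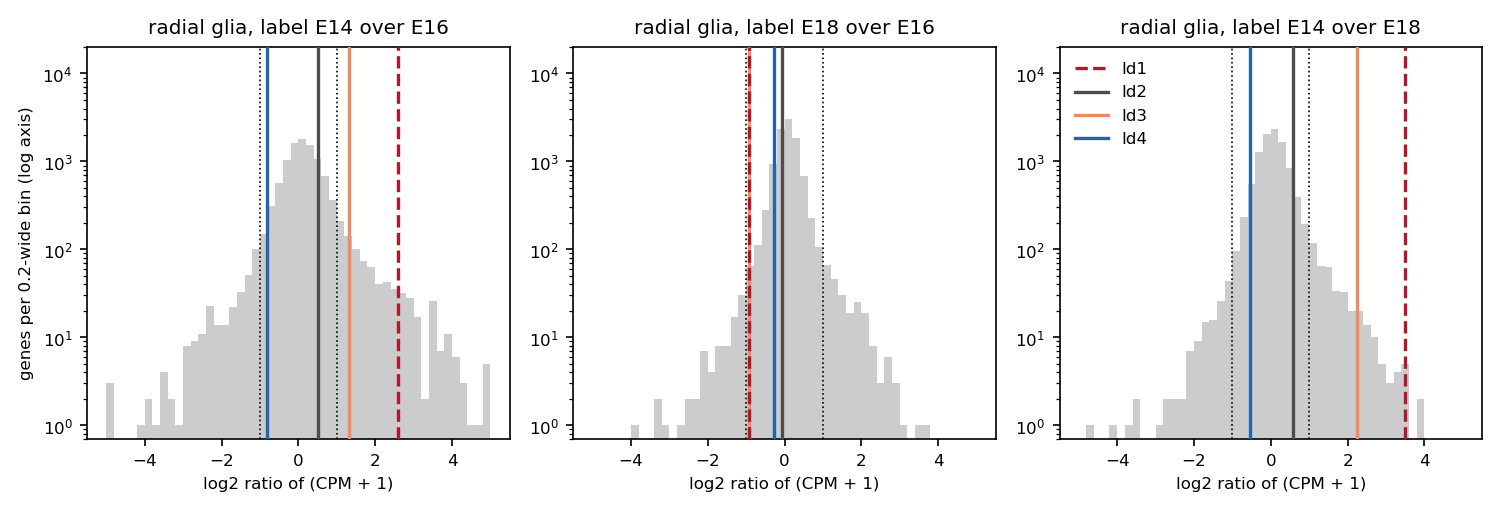
Log2 ratios of (CPM + 1) in radial glia between library labels (horizontal axis) for all genes of at least 5 CPM in 1 of the groups (grey bars, genes per bin on a log axis, values beyond the ends held in the end bins) and for the 4 Id genes (coloured lines, Id1 dashed). Dotted lines mark 2-fold; Id1 and Id3 lie past it in the outer panels, and in the middle panel their lines coincide just short of it.

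Markers of other cell types were summed in these radial glia, and those of endothelial cells came to the least in each library. The 7 endothelial markers summed to 1.24 CPM (0.499–2.56), 1.88 CPM (1.503–2.33) and 1.58 CPM (1.13–2.15) in label order, with overlapping intervals, against 6653 CPM in the endothelial cells, and 5 of them, Pecam1, Cdh5, Flt1, Emcn and Esam, were at 0 UMIs in radial glia labelled E14. The 9 choroid plexus markers summed to 3.37 CPM (2.03–5.26), 13.2 CPM (12.2–14.3) and 41.1 CPM (38.7–43.7). The 7 meningeal markers summed to 3.19 CPM (1.89–5.04), 9.79 CPM (8.89–10.7) and 5.40 CPM (4.53–6.38), with overlapping intervals under labels E14 and E18. Mural cell markers, for which no cell class was named, were at 32.2, 28.1 and 30.7 CPM. The part of RNA from these cell types in the Id1 and Id3 levels of radial glia was not tested. The 11 markers of maturing neurons summed to 350.5, 80.9 and 116 CPM in radial glia, highest in the library where neurons were most of the cells. Their part in the Id2 levels of radial glia was not tested.

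At a common depth, Id4 was detected in most radial glia and Id1 and Id3 in fewer, with the highest shares of both under label E14. A cell without a UMI may still express the gene. To compare shares, each cell was thinned to 2000 UMIs, which left out 5, 20 and 16 radial glia too shallow for it. Id1 was then detected in 10.8% (7.90–14.4), 2.31% (1.79–2.92) and 1.29% (0.817–1.92) of radial glia in label order, and Id3 in 13.5% (10.2–17.4), 4.86% (4.10–5.70) and 2.40% (1.74–3.22). The libraries took the same order in these shares as in the levels. Id2 was detected in 16.9%, 10.8% and 10.3%, and Id4 in 82.5%, 93.2% and 91.5%. Without thinning the shares were 50.7%, 14.2% and 6.93% for Id1, 33.7%, 18.2% and 11.6% for Id3, 58.7%, 50.1% and 46.5% for Id2, and 96.9%, 99.3% and 99.4% for Id4. As a gauge of free RNA, the 124 erythroid cells labelled E16, with a median of 32391 UMIs against 13600 in radial glia, gave no cell with Id1, Id2 or Id3 at 2000 UMIs, which allows up to 2.93%, and 2 cells, or 1.61%, with Id4. The shares of Id1 in radial glia labelled E16 and E18, and of Id3 in those labelled E18, are not above that limit. By level, erythroid cells had Id1 at 1.71 CPM (0.687–3.52) and Id3 at 1.47 CPM (0.538–3.19), against intervals of radial glia that begin at 5.55 CPM for Id1 and 18.5 CPM for Id3. The same free RNA per droplet would be a larger share of the UMIs of a radial glial cell than of the deeper erythroid cells, so this gauge does not separate the Id1 level of radial glia labelled E18 from free RNA. Erythroid cells of the other libraries were too few for this gauge.

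Most Id3 molecules, and most of those of Id1 under label E16, came from a small number of radial glia. The 10% of radial glia with the most Id3 held 72.2%, 86.5% and 94.6% of all Id3 UMIs in label order, and 1 cell held up to 46 of them. For Id1 the shares were 47.5%, 79.6% and 100%, and for Id2 36.2%, 42.5% and 41.9%. The 100% for Id1 under label E18 was fixed in advance, because 165 UMIs could not lie in more than the 181 cells taken. The same share for Id4 was 30.2%, 26.3% and 26.8%, and the median radial glial cell had 13, 24 and 18 Id4 UMIs. These shares rise when a gene has few molecules to spread, and the median cell had no Id3 UMI in each library.

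Within radial glia, Id1 was highest in the clusters with most Top2a, a gene of dividing cells, and Id3 was not. The library labelled E14 had Id1 at 133 CPM (116–151) in cluster 12 and 83.2 CPM (68.1–101) in cluster 18, where Top2a was at 1328 and 1286 CPM, and at 51.1 CPM (42.7–60.7) in cluster 2, where Top2a was at 80.2 CPM. Under label E16 the Top2a-rich clusters 14 and 18 had Id1 at 19.7 and 18.2 CPM, and clusters 1, 4 and 9 had it at 11.6, 11.4 and 7.21 CPM. Under label E18 clusters 12 and 18 had 9.39 and 10.5 CPM of Id1, against 2.14 to 4.54 CPM in clusters 1, 2, 4 and 9. The order thus recurred in all 3 libraries, although some intervals overlap: those of clusters 1, 4 and 9 with those of clusters 12 and 18 under label E18, and those of clusters 1 and 4 with that of cluster 18 under label E16.

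Id3 took another order over the same clusters. It was at 124 CPM (111–138) in cluster 2 labelled E14, above 90.4 CPM (76.9–106) in cluster 12 and 63.6 CPM (50.5–79.0) in cluster 18. Cluster 4, led by the replication genes Ung, Cdc6 and Mcm3, had the most Id3 under label E16, at 64.8 CPM (60.1–69.7), and cluster 18 the least, at 9.27 CPM (5.997–13.7). Under label E18 clusters 1 and 4 stood apart, with Id3 at 119 CPM (97.5–144) and 118 CPM (96.7–142), against 5.92 to 27.3 CPM in clusters 2, 9, 12 and 18. Those 2 clusters held 6.48% of the radial glia labelled E18 and 41.8% (37.5–46.2) of their Id3 UMIs, but 3.64% (1.35–7.75) of their Id1 UMIs. Without them Id3 in radial glia labelled E18 was 12.7 CPM. Of the BMP genes looked at by cluster, they had Bmp7 at 11.4 and 21.4 CPM, where clusters 2, 9, 12 and 18 had 2.69 to 3.85 CPM, and Msx1, a BMP target gene, at 10.2 and 19.3 CPM, where those 4 had 1.71 to 3.85 CPM. Bambi, at 7.95 and 3.21 CPM against 3.06 to 5.39 CPM, was above that range in cluster 1 and within it in cluster 4. No Bmp4 UMI was counted in radial glia labelled E18, which allows up to 0.145 CPM. These values rest on 50 and 67 cells. Id2 was at 32.9 and 18.2 CPM there, below the 47.4 to 69.9 CPM of the other 4. Clusters 1, 4, 9 and 18 had at least 50 cells under both labels E16 and E18. Id3 was lower under label E16 in clusters 1, 4 and 9, at 31.5, 64.8 and 21.1 CPM. It was higher there in cluster 18. The intervals of the 2 labels overlap in clusters 9 and 18. The lower Id3 level of all radial glia labelled E18 was thus not seen within clusters 1, 4 and 9.

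**Figure D3:**
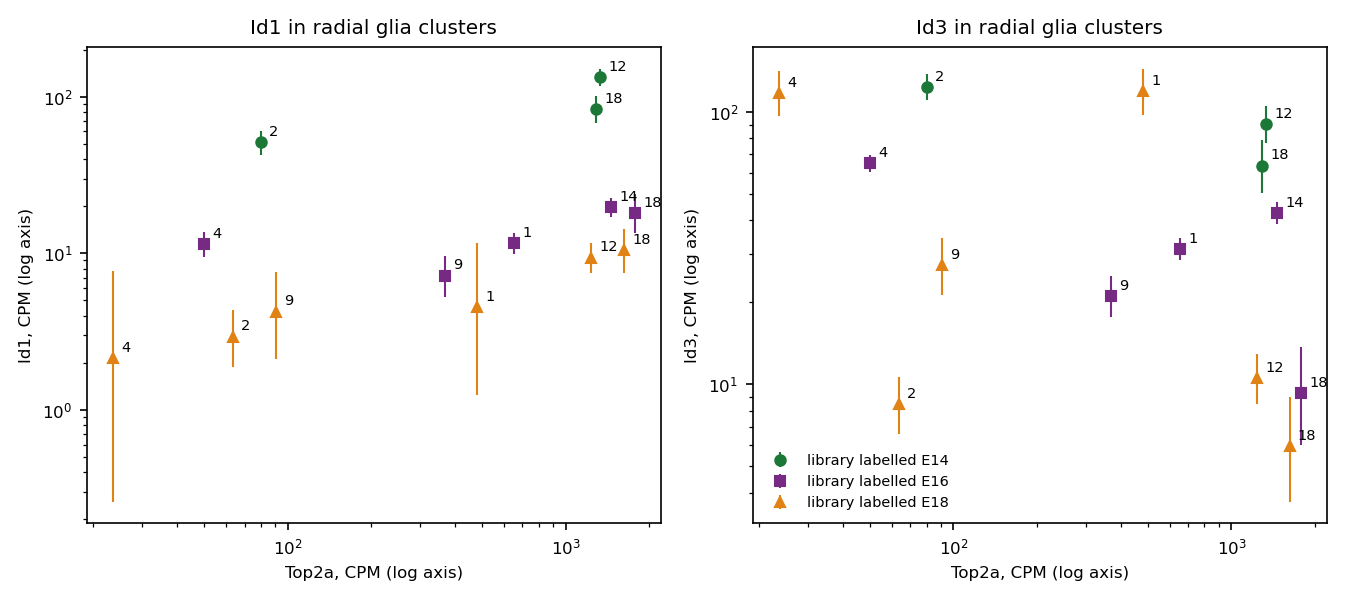
Id1 (left) and Id3 (right) against Top2a in the radial glia clusters of each library (all axes log, CPM), for clusters of at least 50 cells in a library, with 95% counting intervals and cluster numbers. Id1 is highest at the right, where Top2a is at 1239 CPM or more, in each library, while Id3 labelled E18 is highest in clusters 1 and 4.

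In radial glia and the Fgf17/Fgf8 cluster labelled E16, Id3 was found less often in cells with an Id4 UMI than in cells without one, and in other groups the intervals overlap. At 2000 UMIs, Id3 was found in 3.92% (3.22–4.72) of the 2706 radial glia with an Id4 UMI and in 17.8% (12.7–23.8) of the 197 without one. In the Fgf17/Fgf8 cluster of that library the values were 9.84% (5.93–15.1) of 183 cells and 36.2% (30.0–42.8) of 232. Choroid plexus of that library had Id3 in 45.9% (29.5–63.1) of cells with Id4 and 51.8% (42.2–61.3) of those without, and meningeal fibroblasts in 66.7% (29.9–92.5) and 47.8% (38.3–57.4). The intervals also overlap in radial glia labelled E14, at 14.7% (11.001–19.2) and 7.58% (2.51–16.8), and in those labelled E18, at 2.20% (1.54–3.03) and 4.61% (1.87–9.26). In the Fgf17/Fgf8 cluster labelled E16, Id3 was found more often with Id2 than without it, in 46.7% (31.7–62.1) and 21.9% (17.8–26.5) of cells. In radial glia of that library the values were 2.24% (0.904–4.55) and 5.17% (4.35–6.10), the other way and with overlapping intervals. Id1 was found in 21.6% (14.04–30.8) of the Fgf17/Fgf8 cells with Id3 and in 10.9% (7.64–14.8) of those without. In meningeal fibroblasts Id1 was in 20% (10.8–32.3) of cells with Id3 and 6.45% (1.79–15.7) of those without. Choroid plexus labelled E16 had it in 42.7% (31.3–54.6) and 31.1% (20.8–42.9). Radial glia with and without Id3 had it in 15.7% and 10.1% under label E14, in 5.67% and 2.14% under E16 and in 4.65% and 1.203% under E18. The 2 intervals overlap in each of these 6 comparisons of Id1. Cells of 1 library share their preparation and are not replicates.

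Intermediate progenitors, the Eomes-expressing daughters of radial glia, had less Id3 and Id4 than radial glia in each library, and about as much Id2 or more. Id3 was at 3.82, 2.20 and 0.820 CPM in label order, 26.0-fold (16.8–42.3), 17.8-fold (9.64–37.1) and 24.7-fold (13.3–51.8) lower than in radial glia. Id4 was at 158, 427 and 215 CPM, which is 6.81-fold, 4.43-fold and 7.31-fold lower. Id1 was at 6.19 CPM under label E14, 13.6-fold (9.62–19.9) lower than in radial glia, and at 2.30 CPM under label E18, 2.83-fold (1.89–4.39) lower. With 12.3 CPM against 13.2 CPM under label E16 its interval of the ratio, 0.695 to 1.23, holds 1. Id2 was at 79.9, 107 and 75.0 CPM, and its ratios to radial glia were 0.953 (0.835–1.09), 1.83 (1.66–2.01) and 1.34 (1.23–1.45). The members at least 2-fold apart were thus Id1, Id3 and Id4 under labels E14 and E18, and Id3 and Id4 under label E16. Of all genes tested, 14.8%, 15.1% and 13.6% were. Id3 in each library, and Id1 under label E18, were under 5 CPM in intermediate progenitors and were tested only through radial glia.

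Excitatory neurons were nearly without Id1 and Id3. Newborn neurons had Id1 at 1.13 CPM (0.672–1.79) under label E14 and 0.443 CPM (0.178–0.913) under label E18, and maturing neurons had it at 0.454 CPM (0.226–0.812) and 0.612 CPM (0.167–1.57). Id3 in the same 4 groups lay between 0.907 and 1.32 CPM. In the Calb1/Lhx9 cluster Id1 was at 1.67 CPM (0.763–3.17) and Id3 at 2.78 CPM (1.56–4.59). These values are near those of the erythroid cells, which should lack these genes.

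Id2 ran the other way, and was higher in excitatory neurons or their Calb1/Lhx9 stand-in than in radial glia in all 3 libraries. It was 3.80-fold (3.46–4.17) higher in neurons labelled E14, 2.91-fold (2.74–3.10) higher in those labelled E18 and 1.84-fold (1.68–2.02) higher in the Calb1/Lhx9 cluster labelled E16. Radial glia exceeded neurons 117-fold (80.2–176) in Id1, 92.8-fold (68.0–130) in Id3 and 47.2-fold (44.0–50.7) in Id4 under label E14, and 13.2-fold (7.19–27.0), 17.4-fold (11.7–26.9) and 39.4-fold (36.8–42.1) under label E18. All 4 members were past 2-fold in these 2 libraries, where 36% and 33.6% of all genes tested were. In the library labelled E16, where the Calb1/Lhx9 cluster stands in for neurons, 3 were, all higher in radial glia, beside 32.7% of all genes. Id1 and Id3 were under 5 CPM in the neurons or stand-in cluster of each library. They were tested only through radial glia, where they were high. The log2 ratios of Id1 with 1 CPM added, radial glia over neurons, were 5.63, 2.42 and 2.33 in label order, and the lowest, with 5 CPM added, were 3.96, 1.45 and 1.07. Those of Id3 were 5.60, 3.41 and 3.30 and came to 4.10, 2.504 and 2.03 with 5 CPM added. Those of Id4 were 5.50, 3.47 and 5.26 and came to 4.48, 3.06 and 3.81 with the stricter cell filter. That filter, at least 2000 genes and at most 5% mitochondrial UMIs, left few cells labelled E14. It gave 130 radial glia and 93 neurons there, in place of 383 and 3323. Under label E18 it gave 1225 and 613, in place of 1805 and 2239. Plain ratios against the Calb1/Lhx9 cluster were 7.94 (4.15–17.4) for Id1, 14.1 (8.51–25.2) for Id3 and 11.1 (10.4–11.9) for Id4.

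Both classes of excitatory neurons had more Id2 under label E14 than under E18, but not every cluster followed. Maturing neurons had 371 CPM there and 119.7 CPM under label E18, a 3.10-fold difference (2.88–3.34), and newborn neurons had 238 and 181 CPM. By cluster, Id2 reached 507 CPM (494–520) in cluster 10, maturing neurons labelled E14 that had Bcl11b, a gene of deep-layer subcerebral neurons, at 713 CPM. Clusters 6 and 7 of that library, with Bcl11b at 257 and 74.5 CPM, had Id2 at 294 CPM (283–305) and 238 CPM (230–247). Cluster 3, newborn neurons of the same library, had it at 165 CPM (155–174), below cluster 0 labelled E18. A high Bcl11b level did not go with high Id2 in every cluster. Cluster 17, the maturing neurons labelled E18, had the most Bcl11b, at 1116 CPM, with Tbr1, a gene of layer 6 neurons, at 426 CPM, and had Id2 at 116 CPM (108–125). Cluster 0, newborn neurons labelled E18 with 1066 CPM of Bcl11b, had Id2 at 210.2 CPM (201–220). Each of these clusters came almost wholly from 1 library, so cluster and library cannot be told apart.

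**Figure D4:**
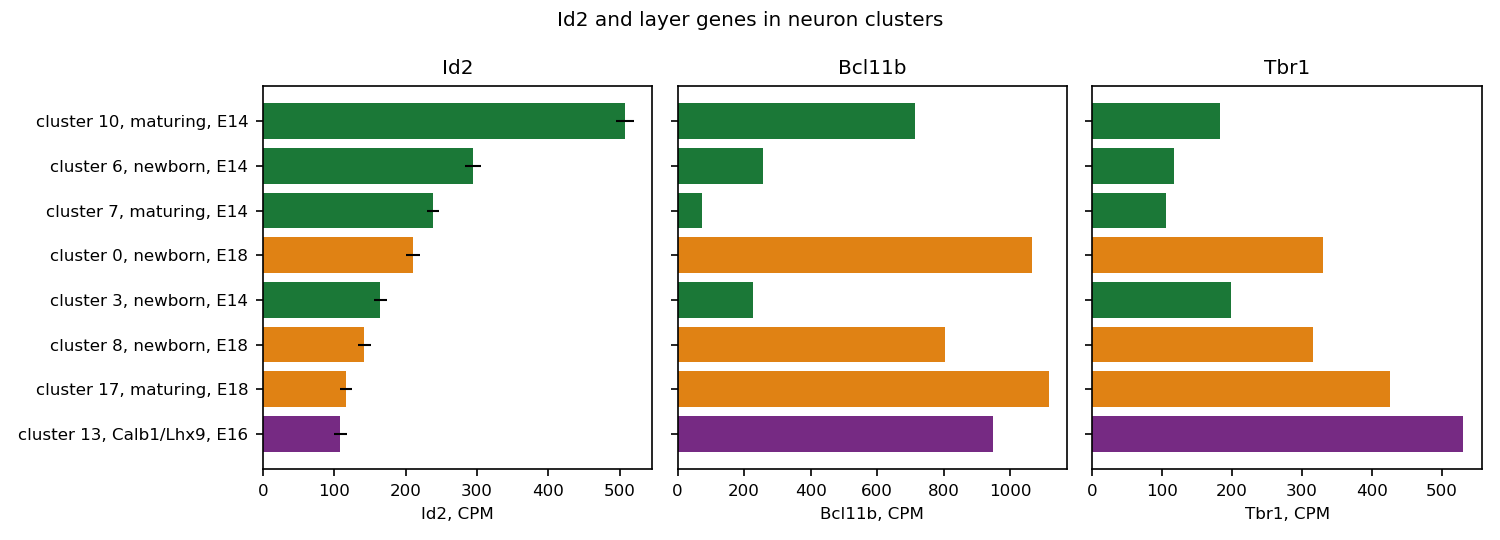
Id2 (left, with 95% counting intervals), Bcl11b (middle) and Tbr1 (right) in clusters of excitatory neurons and in the Calb1/Lhx9 cluster, in CPM on linear axes from 0, coloured by library label (green E14, purple E16, orange E18). Cluster 10, labelled E14, has the most Id2 at 507 CPM, and the clusters with the most Bcl11b do not follow it.

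Choroid plexus, the epithelium that makes cerebrospinal fluid, had far more Id1 and Id3 than radial glia and less Id4. Its 150 cells labelled E16 had Id1 at 311 CPM (291–333) and Id3 at 522 CPM (496–549), 23.5-fold (21.2–26.1) and 13.3-fold (12.4–14.3) above radial glia of that library. The 53 cells labelled E18 had 192 and 226 CPM, 29.5-fold (24.3–35.8) and 11.2-fold (9.75–12.8) above. Id4 was 13.9-fold (12.6–15.4) and 11.9-fold (10.4–13.7) lower than in radial glia, at 136 and 132 CPM. Id2 was 1.84-fold (1.63–2.07) and 2.38-fold (2.06–2.75) higher, at 108 and 134 CPM. Of the 4 members 3 were past 2-fold under label E16 and all 4 under label E18, where 24.8% and 41% of all genes tested were. No choroid plexus cell was named in the library labelled E14.

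The Fgf17/Fgf8 cluster had more Id1 and Id3 than radial glia and less Id4, as choroid plexus did. Under label E16 it had Id1 at 83.6 CPM (75.9–91.9) and Id3 at 249.7 CPM (236–264), 6.32-fold (5.57–7.16) and 6.38-fold (5.93–6.86) above radial glia. Under label E18 it had 86.3 CPM (67.0–109) and 451 CPM (405–500), 13.3-fold (9.85–17.7) and 22.2-fold (19.4–25.5) above. Id4 was 3.83-fold (3.68–3.99) and 5.78-fold (5.05–6.64) lower, at 493 and 272 CPM, and the Id2 ratios of 0.988 (0.874–1.11) and 0.974 (0.702–1.32) have intervals that hold 1. Under both labels 3 of the 4 members were past 2-fold, where 7.52% and 18.5% of all genes tested were. Choroid plexus markers summed to 275 CPM in the cells labelled E16 and 1482 CPM in those labelled E18. Their part in the Id levels of the cluster was not tested.

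Outside the neuroepithelium, the 26 endothelial cells pooled over the libraries had Id1 at 378 CPM (339–421) and Id3 at 483 CPM (438–531), with Id2 at 11.2 CPM (5.38–20.6) and Id4 at 6.74 CPM (2.47–14.7). Of their pooled UMIs, 52.4% came from 7 cells labelled E14, and without these Id1 was at 349 CPM (295–410), Id3 at 635 CPM (561–716), Id2 at 2.36 CPM (0.0598–13.2) and Id4 at 14.2 CPM (5.197–30.8). Without the 16 cells labelled E16, Id4 was at 1.74 CPM (0.0441–9.71). At 2000 UMIs, Id1 was detected in 16 and Id3 in 18 of the 26 cells. Meningeal fibroblasts labelled E16 had Id3 at 424 CPM (393–457), 10.8-fold (9.91–11.8) above radial glia, Id1 at 65.7 CPM (53.9–79.3), 4.96-fold (4.01–6.10) above, and Id4 at 43.8 CPM (34.3–55.2), 43.1-fold (34.2–55.1) below. The vascular and meningeal cells thus shared high Id3 and low Id4 but differed in Id1. The 34 microglia or macrophages had Id1 at 5.39 CPM (1.47–13.8) and no Id3 UMI, which allows up to 4.97 CPM.

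Other neurons of the cortex differed between libraries. Cajal-Retzius cells, the reelin-making neurons of the marginal zone, had Id1 at 30.6 CPM (21.8–41.6) and Id3 at 18.4 CPM (11.8–27.3) under label E16, and at 3.41 CPM (0.704–9.98) and 2.28 CPM (0.276–8.22) under label E18. Their Id4 was 134 CPM (115–155) and 319.8 CPM (284–359), so the order of the labels was the opposite one. Cells of the GABAergic lineage had Id3 at 30.0 CPM (14.4–55.2), 5.09 CPM (1.05–14.9) and 56.9 CPM (36.5–84.6) in label order, and Id4 at 228 CPM (179.9–286), 222 CPM (186–264) and 35.6 CPM (19.9–58.6). The Id3 intervals under labels E14 and E18 overlap, and Id4 was lowest under label E18. Id2 in the GABAergic cells was at 33.0 CPM (16.5–59.1), 27.2 CPM (15.5–44.1) and 52.2 CPM (32.7–79.0). It was below radial glia under labels E14 and E16, with overlapping intervals under label E18. Cajal-Retzius cells had Id2 at 58.1 CPM (45.8–72.7) under label E16 and 75.1 CPM (58.1–95.6) under E18. Both intervals overlap those of radial glia. Each of these values rests on 55 to 144 cells.

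Over the 24 levels of each gene many neighbours in rank do not differ beyond counting error. The ratio of neighbouring levels had an interval that holds 1 in 16 of 23 pairs for Id1, 16 for Id2, 19 for Id3 and 13 for Id4. For Id1 the first 3, endothelial cells and both choroid plexus groups, stood apart from each other and from the rest, although the endothelial level without the cells labelled E14 has an interval that overlaps that of choroid plexus labelled E16. The Fgf17/Fgf8 cluster labelled E18, radial glia labelled E14 and the Fgf17/Fgf8 cluster labelled E16 could not be separated. For Id2 the first 3 were maturing neurons labelled E14 and newborn neurons labelled E14 and E18, each above the next. For Id3 the 4 highest, choroid plexus labelled E16, endothelial cells, the Fgf17/Fgf8 cluster labelled E18 and meningeal fibroblasts, could not be separated each from the next, and the last of them stood above the fifth, the Fgf17/Fgf8 cluster labelled E16. Without the cells labelled E14 the endothelial Id3 level has an interval above that of choroid plexus labelled E16. For Id4 the 3 radial glia groups came first, each above the next.

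Choroid plexus and the Fgf17/Fgf8 cluster had several BMP ligand and target genes that radial glia had at low levels. In choroid plexus 12 of the 25 BMP pathway genes tested under label E16 were at least 2-fold higher than in radial glia and 1 was lower, and 11 of 24 were higher and 3 lower under label E18. Of all genes tested, 24.8% and 41% were past 2-fold in either direction. Of the higher ones, 11 under each label were under 5 CPM in radial glia and were tested only because choroid plexus had them high, so the counts do not bear on the pathway as a whole. The ligands Bmp4, Bmp5, Bmp6, Bmp7 and Gdf5 and the target and feedback genes Smad6, Bambi, Msx1 and Msx2 were higher under both labels. Bmp4 was at 102 and 45.1 CPM there and Msx1 at 102 and 245 CPM. In the Fgf17/Fgf8 cluster Bmp4, Bmp7, Bambi, Msx1 and the antagonist Nbl1 were past 2-fold higher under both labels, among 6 of 19 and 7 of 21 genes tested. Of these, 5 and 6 were under 5 CPM in radial glia and were tested only through the cluster. None of the 19 was past 2-fold lower under label E16, and 2 of the 21, Bmpr1b and Smad7, were under label E18. Of all genes tested, 7.52% and 18.5% were past 2-fold in either direction. Bmp4 was at 33.1 and 156 CPM there and Bambi, a decoy receptor, at 21.1 and 43.1 CPM. Meningeal fibroblasts had Bmp4 at 62.7 CPM and Msx1 at 282 CPM. Endothelial cells had Bmp4 at 5.61 CPM (1.82–13.1) and Bmp2 at 2.25 CPM (0.272–8.11), no UMI of Bmp6 or Bmp7, which allows up to 4.14 CPM of each, Bambi at 51.6 CPM and Msx1 at 11.2 CPM, and had Acvrl1 and Eng, the endothelial receptor and co-receptor of the family, at 50.5 and 423 CPM.

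Within radial glia, 2 of the BMP pathway genes that reached 5 CPM were past 2-fold between libraries, Nbl1 and Bmp2. Of 35 pathway genes, 15 reached the minimum for labels E14 and E16, and the antagonist Nbl1 was at least 2-fold higher under label E14 and the ligand Bmp2 lower, beside 11.1% of all genes past 2-fold. Nbl1 was at 15.6 CPM (12.5–19.2), 3.03 CPM (2.55–3.59) and 7.45 CPM (6.42–8.59) in label order, and Bmp2 at 0.532 CPM (0.110–1.55), 7.04 CPM (6.29–7.86) and 0.985 CPM (0.638–1.45). For labels E14 and E16, and for labels E18 and E16, each of these 2 genes was under 5 CPM in 1 library. Each was tested only through the other library, where it was high, so these counts do not bear on the pathway as a whole. The median log2 ratio over the pathway was -0.02, against 0.13 over all genes, for label E14 over E16, and it lay between -0.09 and 0.24 under the alternatives tried. For label E18 over E16 the same 2 genes of 15 were past 2-fold, beside 3.14% of all genes, with a median of 0.04 against 0.07. For label E14 over E18 none of 13 was, beside 5.15% of all genes, with a median of -0.17 against 0.06. The type I receptor Bmpr1a was at 29.9, 17.7 and 18.6 CPM and the type II receptor Bmpr2 at 86.8, 77.5 and 97.5 CPM. Smad1, which carries the BMP signal to the nucleus, was at 28.2, 31.3 and 32.3 CPM, and Smad7, an inhibitory Smad, at 20.2, 20.5 and 19.5 CPM. Bmp7 was at 3.90, 7.53 and 4.18 CPM, highest under label E16. With no minimum 6 pathway genes were past 2-fold between labels E14 and E16, adding Msx1, Msx2, Smad9 and Bmper. The 11.1% of all genes covers only those that reached 5 CPM, so it is no measure for this count. Msx1 was at 4.08 CPM (2.58–6.11), 0.841 CPM (0.595–1.15) and 3.78 CPM (3.06–4.62), with log2 ratios to label E16 of 1.46 and 1.38. Smad9 and Bmper rest on 10 UMIs each under label E14, and Msx2 on 46 under label E16.

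Of the 3 E protein genes, whose products the Id proteins bind, none was 2-fold apart in radial glia between any pair of labels, beside 11.1%, 3.14% and 5.15% of all genes. Tcf4 was at 2142, 1536 and 2852 CPM. Neurog2, the main proneural factor of the dorsal cortex, was at 161, 129 and 143 CPM in label order. Hes5, a Notch target, was at 169 CPM (159–180), 80.5 CPM (77.9–83.2) and 118 CPM (114–123), and Hey1, another, at 30.7, 85.4 and 47.4 CPM. Hes5 was thus highest under label E14, as Id1 was, but lowest under label E16, where Id1 was not. Neurod2 and Neurod6, genes of neurons, were at 27.3 and 50.5 CPM in radial glia labelled E14 and at 1.02 and 2.08 CPM under label E16. The part of neuronal RNA in these values was not tested.

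Profiles over 22 groups of at least 50 cells were compared with those of 6155 genes, as a description across groups that share libraries. The 5 genes most like Id1 were Metrn, a secreted factor of glial cells, Sparc, Timp1, Pdlim5 and Lamb2, with Pearson's r from 0.91 to 0.93. For Id3 they were Tmem132c, Rab34, Timp1, Sparc and Cthrc1, at 0.90 to 0.93, so Timp1, a metalloproteinase inhibitor, and Sparc, a matrix protein, were on both lists. For Id2 they were Dpy19l1, Ndufaf5, Znrf2, Got1 and Ormdl3, at 0.82 to 0.85, and for Id4 Cntfr, LOC102555346, Sall1, Suz12 and Rcc1, at 0.84 to 0.89. The r between Id1 and Id3 was 0.88, and between the other pairs of members it lay between -0.16 and 0.27. By Spearman's rank 1 of 5 names was shared with these lists for each member, so the names depend on the measure. Sparc was at 617 and 1110 CPM in choroid plexus and, under labels E14, E16 and E18, at 208, 43.7 and 51.9 CPM in radial glia, while Tmem132c was at 1.42 CPM in radial glia labelled E14, where Id3 was at 99.4 CPM.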

How the data were processed

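Counts of UMIs per gene and barcode were deposited by the authors, not normalized, and were made with Cell Ranger 6.0.1 on the build mRatBN7.2, per the file headers and the submitters' processing notes. Barcodes with at least 1000 genes and at most 10% mitochondrial UMIs were kept. Scrublet, run through Scanpy 1.11.5, ranked likely doublets, and 0.8% per 1000 cells were taken out. Clusters were built from log values of counts scaled to 10000 a cell, with 2000 variable genes, 30 principal components and 15 neighbours with leidenalg 0.10.2 at resolution 1, in Python 3.11.15. A cluster was named from at least 3 markers raised 1.2-fold in 20% of its cells. Of 108 marker symbols 107 were found.

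UMIs were summed per class and library. Levels carry exact Poisson intervals, and ratios and shares exact Clopper-Pearson intervals. With 1 library per label no test was made. Likeness was Pearson's r of log2(CPM + 10) over genes reaching 50 CPM.

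The members and lists were chosen with earlier results of these data known. Genes named are the Id genes, genes of lists for the BMP pathway, E proteins, proneural, Hes and Hey, stage, mitotic and layer genes, cell type markers, leading genes of clusters and the 5 genes most like each member. Alternatives were other cell filters, doublet rates, resolutions, clustering per library, scaling, pseudocounts and minimum levels. The 2-fold rule and the intervals were tested on simulated data. Some genes of the proneural and layer lists are not reported here.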

Additional observations from a re-analysis of the deposited data

How the results depend on the processing

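No paired analysis was possible because each label has 1 library and the labels give no replicate numbers. Leaving out a replicate was not possible either. Under 14 alternatives the number of Id genes at least 2-fold apart stayed at 2 for labels E14 over E18, and for labels E14 over E16 it stayed at 2 except with no doublets removed, where Id4 joined and it was 3. For labels E18 over E16 it was 0, and became 2 with no doublets removed, 1 with doublets removed at 2 times the rate, 1 with the mean over cells, and 2 without radial glia clusters 1 and 4, an alternative chosen after seeing the data. The number of BMP pathway genes past 2-fold was 2 for labels E14 over E16, and became 1 at resolution 2, 0 with a minimum of 20 CPM, 6 with no minimum and 1 without clusters 1 and 4. For labels E18 over E16 it was 2, and became 1 with the stricter cell filter, at resolution 2, with each library clustered on its own, with 5 CPM added and without clusters 1 and 4, 0 with a minimum of 20 CPM and 3 with no minimum. For labels E14 over E18 it was 0, and became 1 with the looser or stricter cell filter, with no doublets removed or 2 times as many, at resolution 2 and without clusters 1 and 4, and 2 with no minimum. Shares of all genes past 2-fold under these alternatives are not given beside these counts. The log2 ratios of Id1, Id3 and Id4 in radial glia kept their sign under all 14 alternatives in each pair of labels. That of Id2 changed sign for labels E18 over E16 with no doublets removed. Of the values for single genes, list medians and shares under these alternatives, 384 kept to the reported value within its error and 144 moved further, and no 2-fold difference reversed. The intervals hold no variation between embryos or preparations. Radial glia labelled E18 held 165 UMIs of Id1 and 514 of Id3, and those labelled E14 held 473 of Id2.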
